A study of Homo sapiens with 13 samples.

Results

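Peaks of H3K27Ac, an acetylation of histone H3 at lysine 27, were measured in the human esophageal epithelial cell line TE-7, an established line, with IL-13 and without it. Every entry of the deposited H3K27Ac comparison was taken, and a peak listed at several transcription starts was counted once. That gave 15147 peaks, listed at 17197 starts of 14673 gene symbols. A peak was kept when its level in the higher library was at least 30, which left 12440 of the 34314 peaks kept over the 3 histone marks of the study. The level is the normalised read number of a peak in a library, computed from the ratio and mean of the 2 libraries in the authors' deposited table. The peaks nearest to the minimum, at PEX11G, ICAM4/ICAM5 and RPE65, had a level of 30.06, and those just under it, at EXOC8/SPRTN, LINC00346 and LOC100505782, had 29.96.

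The cells were grown in RPMI medium with 5% FCS. One ChIP-seq library was made after 6 hr of IL-13 at 100 ng/ml and 1 from control cells, both with an Abcam antibody to H3K27Ac, and H3K9Ac and H3K4me3 were profiled in the same way. RNA was sequenced with IL-13 and in control cells at 2, 6 and 24 hr, as 1 library per treatment and time. The question was how an epithelial cell answers IL-13, and what the acetylated starts of its genes do.

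Neither the table nor the labels say which H3K27Ac library came from IL-13 cells. The libraries are therefore called library 1 and library 2, and no direction of treatment is given to any peak. With 1 library on each side there is no replicate check, no test was made, and fold values compare these libraries alone. A difference in every cell and one in a share of the cells cannot be told apart in such samples.

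H3K27Ac is placed by the acetyltransferases CBP and p300 and marks active promoters and enhancers, where it neutralises a charge on the histone tail and is read by bromodomain proteins. IL-13 is a type 2 cytokine that binds IL-13Rα1 paired with IL-4Rα on epithelial cells. Janus kinases on these receptors phosphorylate STAT6, which enters the nucleus and binds DNA, and SOCS proteins feed back on the kinases. In the esophagus IL-13 is best known for its part in eosinophilic esophagitis, in which CCL26 draws eosinophils into the epithelium.

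The sequences before the starts of 5 genes are shown. They come from 13 members of a list of IL-13 responsive genes that differed at least 2-fold, all higher in library 2. Of these 13, 8 had 1 start and 1 sequence window, and 5 of those are shown. Each sequence is the 250 bases before the gene start in RefSeq (GRCh38.p14), written 5′ to 3′ on the gene's strand. Capitals mark matches to TTCNNNGAA, a palindromic STAT motif, or TGANTCA, the AP-1 motif. The wider spacing that STAT6 prefers, TTC and GAA with 4 bases between them, was searched too. All 3 motifs read alike on both strands, and no match overlapped another. LURAP1L lies on the plus strand at chr9:12774770-12775019. SOX2, a transcription factor of basal squamous cells, lies on the plus strand at chr3:181711675-181711924. SOCS1, a feedback inhibitor of Janus kinases, lies on the minus strand at chr16:11256205-11256454. MMP7, the metalloproteinase matrilysin, lies on the minus strand at chr11:102530748-102530997. CISH, a cytokine-inducible SH2 feedback protein, lies on the minus strand at chr3:50611775-50612024.
LURAP1L: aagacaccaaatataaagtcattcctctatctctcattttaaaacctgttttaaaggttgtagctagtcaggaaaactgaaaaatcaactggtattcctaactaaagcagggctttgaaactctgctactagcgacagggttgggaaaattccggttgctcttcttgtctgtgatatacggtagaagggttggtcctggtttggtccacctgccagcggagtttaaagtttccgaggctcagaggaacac
SOX2: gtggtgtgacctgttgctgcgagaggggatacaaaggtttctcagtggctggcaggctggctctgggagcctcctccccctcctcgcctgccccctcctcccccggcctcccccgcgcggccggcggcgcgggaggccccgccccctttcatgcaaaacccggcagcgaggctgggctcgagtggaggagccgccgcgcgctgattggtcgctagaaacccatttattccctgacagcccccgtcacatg
SOCS1: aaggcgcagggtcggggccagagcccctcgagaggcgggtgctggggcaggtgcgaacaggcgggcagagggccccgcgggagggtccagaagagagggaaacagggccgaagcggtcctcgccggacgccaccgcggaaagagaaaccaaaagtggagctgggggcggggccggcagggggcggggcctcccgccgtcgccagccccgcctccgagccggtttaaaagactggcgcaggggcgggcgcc
MMP7: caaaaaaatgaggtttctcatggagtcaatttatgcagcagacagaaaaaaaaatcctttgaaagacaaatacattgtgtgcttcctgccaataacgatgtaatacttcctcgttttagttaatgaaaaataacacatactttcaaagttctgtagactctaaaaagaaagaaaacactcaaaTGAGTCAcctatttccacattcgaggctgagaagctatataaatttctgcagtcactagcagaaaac
CISH: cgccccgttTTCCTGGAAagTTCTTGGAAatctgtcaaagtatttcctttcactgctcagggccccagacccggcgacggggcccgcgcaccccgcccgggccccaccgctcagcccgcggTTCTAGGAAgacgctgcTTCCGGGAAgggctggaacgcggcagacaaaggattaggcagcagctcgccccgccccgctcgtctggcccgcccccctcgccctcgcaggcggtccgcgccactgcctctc

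The CISH sequence held 4 matches to TTCNNNGAA, which begin 241, 230, 129 and 112 bases before the start and read TTCCTGGAA, TTCTTGGAA, TTCTAGGAA and TTCCGGGAA. Of the 35116 sequences of this length in the RefSeq table, 5 held 4 or more such matches. MMP7 held 1 match to TGANTCA, which begins 67 bases before the start. The other sequences held no match, which says only that these letters are not in this window. Over all 35116 sequences, TTC and GAA with 4 bases between them were found in 5.38%, TTCNNNGAA in 6.57% and TGANTCA in 6.57%. A match is a description of the letters and not a bound site. The peaks were listed on hg19, so these windows were matched to them by gene symbol and not by position.

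The libraries were close to each other over most of the genome. The median level was 124 in library 1 and 118 in library 2, and 77.7% of the kept peaks, 9663 in number, lay within 1.5-fold. M is the log2 ratio of library 1 over library 2. Library 1 was at least 2-fold higher at 627 peaks (5.04% of those kept) and library 2 at 461 (3.71%). With M centred on its median of 0.08 these counts were 520 for library 1 and 535 for library 2, so which library held more such peaks depended on the centring. M ran from -5.56 to 4.05. Differences past 2-fold were most frequent among weak peaks. At levels of 30 to 60, library 1 was 2-fold higher at 14.5% of peaks and library 2 at 11.5%. At levels of 240 to 480, library 1 was 2-fold higher at 0.611% and library 2 at 0.204%. Of the 453 peaks at 480 or more, 4 were higher in library 1 and 0 in library 2. The standard deviation of M over peaks was 0.95 in the lowest of 5 level classes and 0.28 in the highest.

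**Figure D1:**
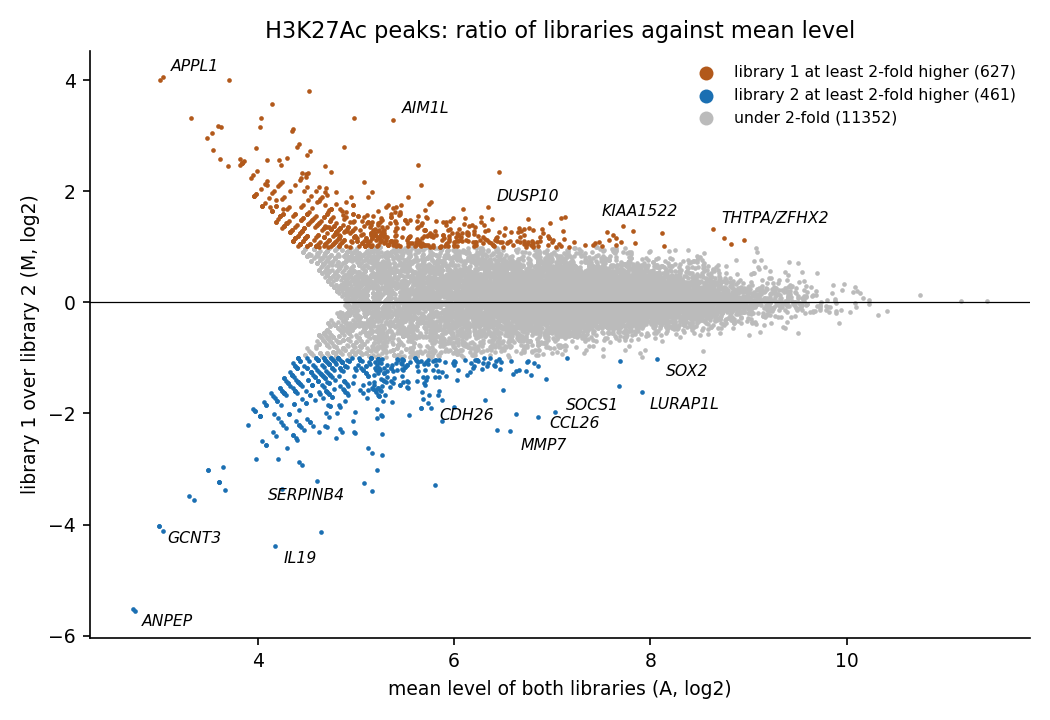
H3K27Ac peaks by the mean log2 level of both libraries (x axis) and the log2 ratio of library 1 over library 2 (y axis); each point is 1 peak counted once. The 627 peaks at least 2-fold higher in library 1 and the 461 in library 2 lie mostly at low levels, and CDH26, MMP7, CCL26, SOCS1, LURAP1L and SOX2 stand apart at the lower edge among strong peaks.

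The authors' own p-value for each peak did not always follow from the levels beside it. The −log10 p in the authors' deposited table was set against that of a two-sided binomial comparison of the 2 rounded levels, which compares libraries and not conditions, and it differed by more than 1 at 1484 peaks (11.9%). Among peaks of level 120 or more, this held for 68 of 92 that were higher in library 1 (73.9%), all with a weaker p in the authors' deposited table. It held for 2 of 33 that were higher in library 2 (6.06%). The 24 strong peaks higher in library 1 and the 31 higher in library 2 whose p did follow their levels are therefore also given separately beside RNA at 6 hr and beside the other marks. Of the peaks whose departure is not given beside their levels, the p was stronger than the levels give at SERPINB3, SOCS3, CXCL1, ISG20 and BCL11B. It was weaker at JAK1, IL24, HSPG2, GALNT10, CSF2, CDKN1A and the weaker ZNF750 peak. What the difference comes from was not tested. The controls at 2 and 6 hr of the RNA set shared 359 identical RPKM values above 0, against 0 in each of the other 14 pairs of RNA libraries. All 10 epithelial markers reached 1 RPKM in each of the 6 RNA libraries. All 10 had an H3K27Ac peak at the minimum level, with medians of 188 in library 1 and 150 in library 2, whereas 1 of 18 markers of leukocytes, endothelium, fibroblasts and neurons did (VWF). Of these 18 markers, 4 reached 1 RPKM in the 2 hr control, 2 with IL-13 at 24 hr and 1 in each other RNA library. The highest value among them was 4.21 RPKM, with IL-13 at 24 hr.

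The genes known to answer IL-13 in epithelia were mostly higher in library 2. Of the 37 genes of that list, 24 had a kept peak, and their median M was -1.01, against 0.09 over all 13067 genes with a kept peak. By the highest peak of each gene, 0 of the 24 were past 2-fold on the side of library 1 and 13 on that of library 2. Over all genes these shares were 3.24% for library 1 and 1.81% for library 2. The list was drawn up with results of these data known, so its direction is not independent evidence.

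CCL26, the eosinophil chemokine eotaxin-3, had a level of 56.7 in library 1 and 238 in library 2 at its start on chromosome 7 at 75401572 (hg19). Library 2 was thus 4.20-fold higher there. Its −log10 p in the authors' deposited table was 33.88, which is 7.15 more than its levels give. At its upstream start, 75419064, the levels were 58.5 in library 1 and 56.9 in library 2, so the difference was at the inner start of the gene. CDH26, a cadherin of inflamed epithelium, had 39.1 in library 1 and 193 in library 2. MMP7, which cleaves matrix and cell-surface proteins, had 42.5 in library 1 and 212 in library 2, a 4.99-fold difference. A neighbouring peak listed for the same MMP7 start had 7.94 in library 1 and 74.0 in library 2. The highest peaks of these 3 genes lay under the median of all peaks in library 1 and above it in library 2.

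Of the feedback genes of the pathway, SOCS1 and CISH were 2-fold higher in library 2, and SOCS2 to SOCS7 were under 2-fold, with SOCS2 and SOCS7 toward library 1 at an M of 0.68 for SOCS2 and 0.74 for SOCS7. SOCS1 had a level of 65.8 in library 1 and 260 in library 2. CISH had 69.8 in library 1 and 173 in library 2, at a start that it shares with MAPKAPK3, so the peak cannot be given to either gene alone. Of the 32 receptor, Janus kinase, STAT and feedback genes with a kept peak, SOCS1 and CISH were the members 2-fold higher in library 2. IL13RA1, the IL-13 binding chain of the receptor, was 2-fold higher in library 1, at 128 in library 1 and 48.5 in library 2; its p in the authors' deposited table was weaker than its levels give. The other 29 members were under 2-fold, and the median M of the 32 was 0.18. The ubiquitous kinase JAK1 had 158 in library 1 and 86.5 in library 2. IL4R had 438 in library 1 and 348 in library 2, and STAT6 had 666 in library 1 and 657 in library 2. SOCS3, a related inhibitor, had 198 in library 1 and 209 in library 2.

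Among the serine protease inhibitors of the SERPINB family, SERPINB3 and SERPINB4, the squamous cell carcinoma antigens, were close to empty in library 1. SERPINB4 had 11.0 in library 1 and 104 in library 2, and SERPINB3 had 4.48 in library 1 and 35.1 in library 2. These are near-identical gene copies, so the way reads were placed can shift signal between them. Of the 9 SERPINB genes with a kept peak, they were the 2 that were higher in library 2. SERPINB1 was higher in library 1, at 48.3 in library 1 and 24.0 in library 2. SERPINB13, a neighbour on chromosome 18, had 329 in library 1 and 357 in library 2.

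Other members with a higher level in library 2 are enzymes, transporters and regulators. LURAP1L had 137 in library 1 and 422 in library 2, and SOX2 had 189 in library 1 and 383 in library 2. SGK1, a kinase that regulates sodium transport, had 66.5 in library 1 and 154 in library 2. GCNT3, which builds branched O-glycans on mucins, had 1.97 in library 1 and 32.1 in library 2. TGM2, a transglutaminase, had 21.1 in library 1 and 58.1 in library 2. ADAMTS15, a metalloproteinase of the matrix, had 19.97 in library 1 and 39.9 in library 2. GCNT3, TGM2 and ADAMTS15 lay near the minimum level, where 11.5% of all peaks were 2-fold higher in library 2. ANO1, a chloride channel, fell just short of 2-fold with 171 in library 1 and 339 in library 2, and its −log10 p in the authors' deposited table exceeded that from its levels by 11.9. HAS3, a hyaluronan synthase, had 95.0 in library 1 and 168 in library 2. CAPN14, an esophageal calpain, had 2.95 in library 1 and 24.9 in library 2 and so stayed under the minimum.

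**Figure D2:**
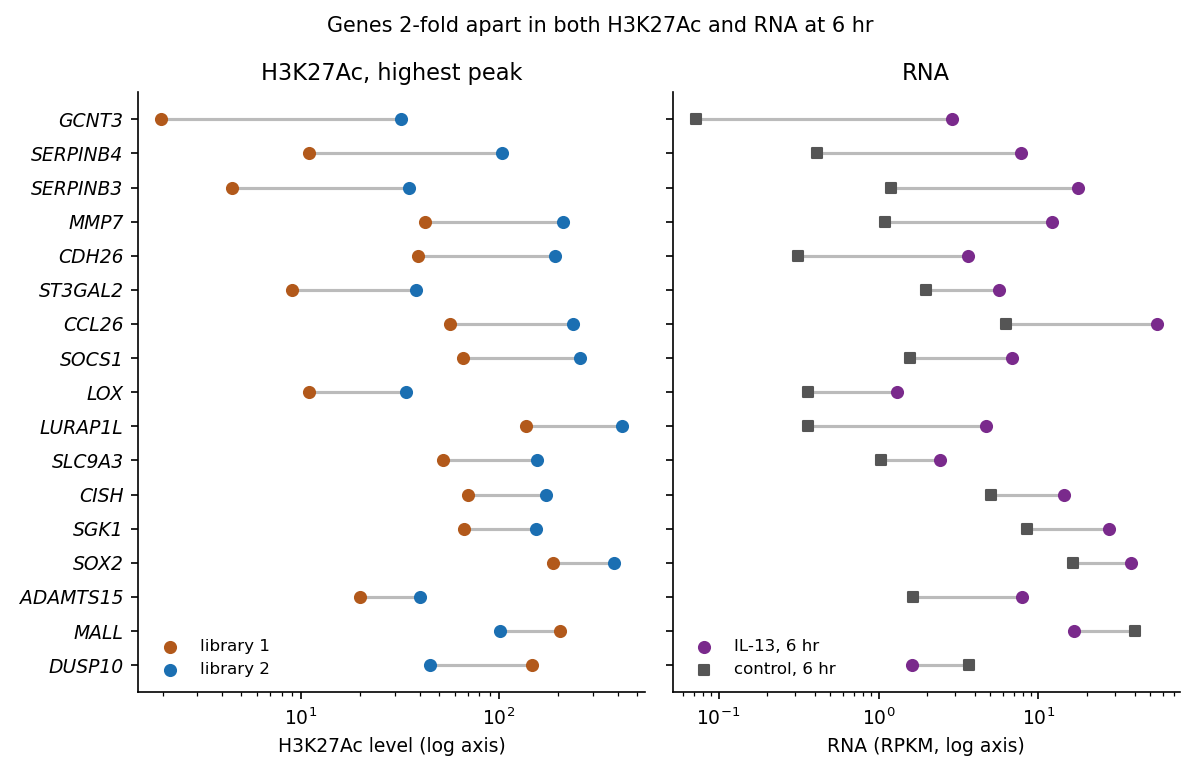
Levels of the highest H3K27Ac peak in library 1 and library 2 (left panel, log axis) and RPKM with IL-13 and in control cells at 6 hr (right panel, log axis) for the 17 genes that differed at least 2-fold in both. The 15 genes with more RNA under IL-13 all have the higher H3K27Ac level in library 2, and MALL and DUSP10, with less RNA under IL-13, have it in library 1.

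Other strong peaks higher in library 2 belong to genes outside that list. PTPN3, a tyrosine phosphatase, had 33.2 in library 1 and 123 in library 2. LBH, a transcription cofactor, had 43.3 in library 1 and 146 in library 2. SLC9A3, a sodium-proton exchanger, had 52.5 in library 1 and 156 in library 2. ACOT7, an acyl-CoA thioesterase, had 122 in library 1 and 345 in library 2. XPR1, a phosphate exporter, had 100.4 in library 1 and 201 in library 2. A peak at the microRNA gene MIR3973 had 18.0 in library 1 and 175 in library 2. All 6 had a p in the authors' deposited table that followed their levels.

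Peaks with the most extreme ratios were weak. OR10S1, an olfactory receptor gene, had 0.979 in library 1 and 46.2 in library 2, and ANPEP, an aminopeptidase, had 0.976 in library 1 and 45.1 in library 2. IL19, a cytokine of the IL-20 family, had 3.96 in library 1 and 83.0 in library 2. VWF, an endothelial gene, had 2.97 in library 1 and 35.02 in library 2. On the other side APPL1, an endosomal adaptor, had 33.2 in library 1 and 2.01 in library 2, and AIM1L had 130 in library 1 and 13.3 in library 2. The APPL1 and AIM1L peaks had p-values in the authors' deposited table that departed from their levels, and so did LINC00574, CBWD3/CBWD5 and VGF.

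Library 1 was higher at a set of genes with other roles. DUSP10, a phosphatase that turns off p38 and JNK kinases, had 148 in library 1 and 44.9 in library 2. FST, the activin inhibitor follistatin, had 1 peak with 122 in library 1 and 37.9 in library 2, and its highest peak had 217 in library 1 and 103 in library 2. RNASE7, an antimicrobial ribonuclease of skin, had 185 in library 1 and 78.2 in library 2. MALL, a membrane raft protein, had 204 in library 1 and 102 in library 2. ABL2, a tyrosine kinase, had 181 in library 1 and 64.0 in library 2, and DKK1, a Wnt inhibitor, had 246 in library 1 and 119 in library 2. The p in the authors' deposited table followed the levels at these peaks, except at the highest FST peak. It was weaker than the levels give at all 10 peaks with the largest ratios among those of level 200 or more on this side. The start shared by THTPA and ZFHX2 had 630 in library 1 and 252 in library 2, IFRD1 had 429 in library 1 and 180 in library 2, and KIAA1522 had 339 in library 1 and 131 in library 2. AURKB, a mitotic kinase, had 207 in library 1 and 76.9 in library 2, and its −log10 p in the authors' deposited table was 4.33.

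The other gene lists stayed near the median of all genes. Over all 13067 genes with a kept peak, 3.24% were past 2-fold by their highest peak toward library 1 and 1.81% toward library 2. List counts are by the highest peak of each gene unless stated. Of 28 immediate early and MAP kinase feedback genes, DUSP10 was past 2-fold by its highest peak and the median M was 0.26. A further kept peak of MYC was 2-fold higher in library 2, with 76.9 in library 1 and 164 in library 2. At BTG2 a further kept peak was 2-fold higher in library 1. EGR1, a growth-induced factor, had 178 in library 1 and 94.7 in library 2, and JUNB had 291 in library 1 and 403 in library 2. Of 22 NF-κB targets and inflammatory cytokines, CSF2, RELB and BIRC3 were past 2-fold on the side of library 1 and 0 genes were on that of library 2, with a median of 0.18. CSF2, the cytokine GM-CSF, had 51.1 in library 1 and 13.4 in library 2. Of 23 interferon-stimulated genes, ISG20 and IFI6 were 2-fold higher in library 2 by their highest peak, with a median of -0.09. IFI6 went both ways at the same start, with an M of -1.32 at its highest peak and 1.29 at another kept peak. Of 7 chemokine genes, CCL26, CCL27 and IL8 were 2-fold higher in library 2 by their highest peak. IL8 had 23.0 in library 1 and 51.1 in library 2 there. Another kept IL8 peak at the same start went the other way under 2-fold, with an M of 0.52. CXCL1, a neutrophil chemokine, had 258 in library 1 and 269 in library 2. The called peaks of CSF2, BIRC3, IFI6, CCL27 and IL8 lay at levels of 30 to 60. In that class 14.5% of all peaks passed the limit toward library 1 and 11.5% toward library 2.

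Squamous identity genes differed little. Of 18 squamous differentiation genes 0 were past 2-fold by their highest peak, with a median M of 0.19. Over all genes the shares past 2-fold were 3.24% toward library 1 and 1.81% toward library 2. Of 18 basal squamous genes NGFR was 2-fold higher in library 1 and SOX2 in library 2, with a median of 0.22. KRT5, a basal keratin, had 268 in library 1 and 232 in library 2. TP63, the master factor of squamous cells, had 461 in library 1 and 671 in library 2. EGFR, the receptor of epidermal growth factor, was the highest of all with 2778 in library 1 and 2740 in library 2. KRT13, an esophageal keratin, had 23.0 in library 1 and 43.9 in library 2. At KRT10 and ZNF750 a further, weaker peak at the same start was 2-fold higher in library 1. ZNF750, a differentiation factor, had 101 in library 1 and 97.3 in library 2 at its highest peak, and 75.1 in library 1 and 23.1 in library 2 at another.

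Of 24 hyaluronan and matrix genes, MMP7, LOX and ADAMTS15 were past 2-fold, all on the side of library 2, with a median M of -0.17. Of 18 mucin and O-glycan genes, GALNT10 was higher in library 1, at 58.9 in library 1 and 21.7 in library 2, and GCNT3 in library 2, with a median of 0.22. Of 9 cell-surface peptidases ANPEP was past 2-fold. IL19 was the 1 of 7 IL-20 family genes past 2-fold, and the neighbouring gene IL24 had 113 in library 1 and 58.7 in library 2. Of 30 cell cycle genes AURKB and CDKN1A were higher in library 1. Of 28 genes for writing, removing or reading histone acetylation 0 were past 2-fold, and of 20 housekeeping genes 0, each with a median of 0.12. EP300, which encodes p300, had 282 in library 1 and 236 in library 2, and ACTB had 395 in library 1 and 366 in library 2.

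**Figure D3:**
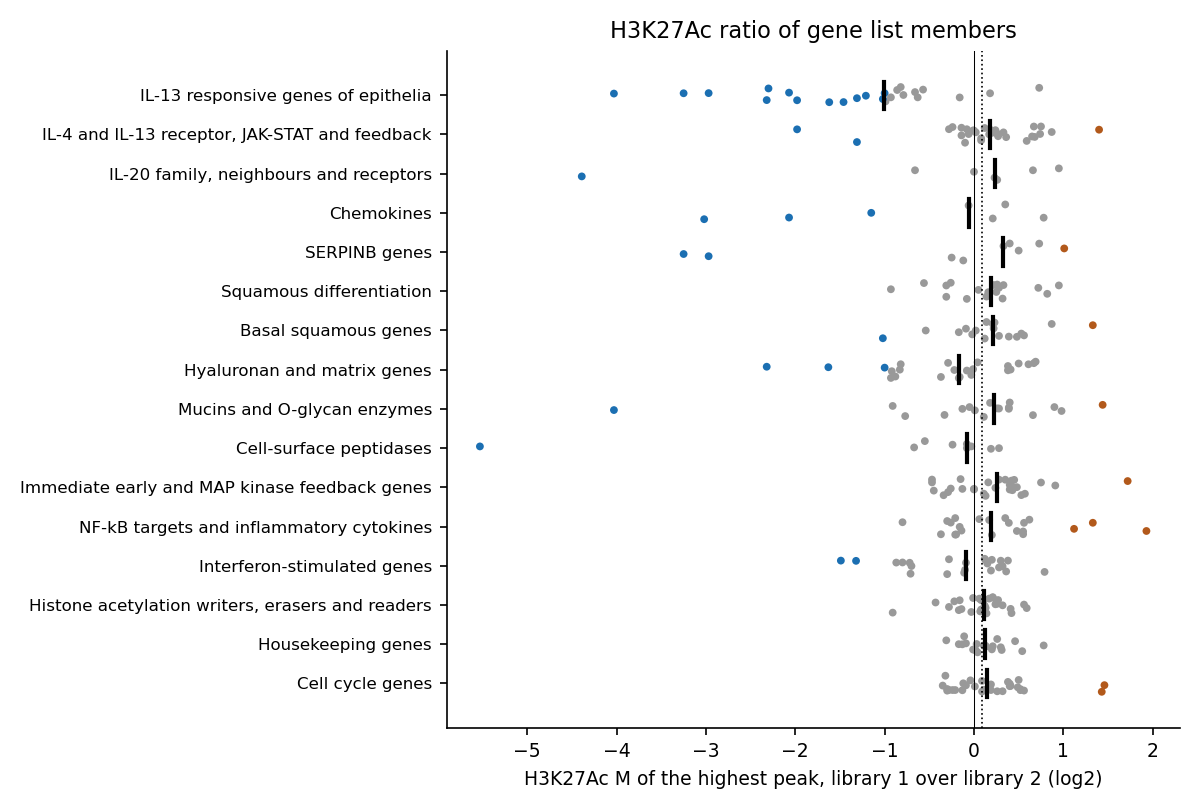
M of the highest H3K27Ac peak, log2 of library 1 over library 2, for members of 16 gene lists; each point is a gene, black bars are medians, the dotted line is the median of all genes, and coloured points are at least 2-fold apart. The IL-13 responsive genes lie farthest to the side of library 2, with a median of -1.01, and the acetylation, housekeeping and squamous lists gather near 0.

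Along the chromosomes 2 runs of at least 3 neighbouring peaks past 2-fold the same way, with gaps of at most 200 kb, were found. On chromosome 5 the run held LOX, lysyl oxidase, with 11.0 in library 1 and 33.9 in library 2, then ZNF474 with 9.95 in library 1 and 33.0 in library 2, and LOC100505841 with 143 in library 1 and 298 in library 2. On chromosome 1 the run held HSPG2, the matrix proteoglycan perlecan, with 187 in library 1 and 84.2 in library 2, then CELA3B with 87.4 in library 1 and 36.0 in library 2, and CELA3A with 40.4 in library 1 and 10.02 in library 2. The first run was higher in library 2 and the other in library 1. Of all 12440 kept peaks, 5.04% passed the limit toward library 1 and 3.71% toward library 2. How many runs such shares would give with no link between neighbours was not tested. LOX and ZNF474 lay at levels of 30 to 60, where 11.5% of peaks passed the limit toward library 2. CELA3A lay there too, where the share toward library 1 was 14.5%.

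The peaks were then set beside RNA, which the choice of peaks had not used. RNA was counted as changed when log2(RPKM + 0.1) differed by 1 or more and the higher library had at least 1 RPKM. At 6 hr, the time of the ChIP-seq, 0.543% of 11797 genes were higher and 0.11% lower with IL-13. Of 266 expressed genes whose highest peak was 2-fold higher in library 1, 0 had higher RNA with IL-13 and 2 lower, and their median log2 ratio was -0.03. Of 124 genes whose highest peak was 2-fold higher in library 2, 15 had higher RNA and 0 lower, and the median was 0.11. Of 10342 genes with a ratio under 2-fold, 38 were higher and 6 lower. RNA was above control at 39.5% of the genes of the library 1 side and at 67.7% of those of the library 2 side.

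The RNA difference was larger at genes with larger ratios, and at the strongest peaks. The 13 genes with M of -2 or lower had a median RNA log2 ratio of 1.47, and 7 of them were higher with IL-13. Genes of the library 2 side had a median of 0.11 at levels of 30 to 60 and 0.08 at 60 to 120. At levels of 120 or more, 87 genes of the library 1 side had a median of -0.03 with 0 higher and 2 lower, and 25 genes of the library 2 side had 0.30 with 9 higher. With peaks left out whose deposited p departed from their levels, the counts were 0 of 16 genes higher and 2 of 16 lower on the library 1 side, and 8 of 24 higher on the library 2 side.

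Among the genes that moved in both, CCL26 RNA was 54.8 RPKM with IL-13 and 6.27 RPKM in control cells. CDH26 RNA was 3.63 RPKM with IL-13 and 0.312 RPKM in control cells. MMP7 RNA was 12.2 RPKM with IL-13 and 1.09 RPKM in control cells. LURAP1L RNA was 4.67 RPKM with IL-13 and 0.360 RPKM in control cells, SOX2 RNA was 37.7 RPKM with IL-13 and 16.4 RPKM in control cells, and SOCS1 RNA was 6.87 RPKM with IL-13 and 1.57 RPKM in control cells. On the library 1 side MALL RNA was 16.7 RPKM with IL-13 and 40.0 RPKM in control cells, and DUSP10 RNA was 1.63 RPKM with IL-13 and 3.68 RPKM in control cells. Not every differing peak had RNA to match. PTPN3 RNA was 8.33 RPKM with IL-13 and 6.74 RPKM in control cells, ACOT7 RNA was 89.9 RPKM with IL-13 and 86.5 RPKM in control cells, and IL13RA1 RNA was 17.6 RPKM with IL-13 and 18.0 RPKM in control cells. TGM2 RNA was 1.36 RPKM with IL-13 and 1.18 RPKM in control cells, and ANPEP RNA was 0.132 RPKM with IL-13 and 0.210 RPKM in control cells.

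**Figure D4:**
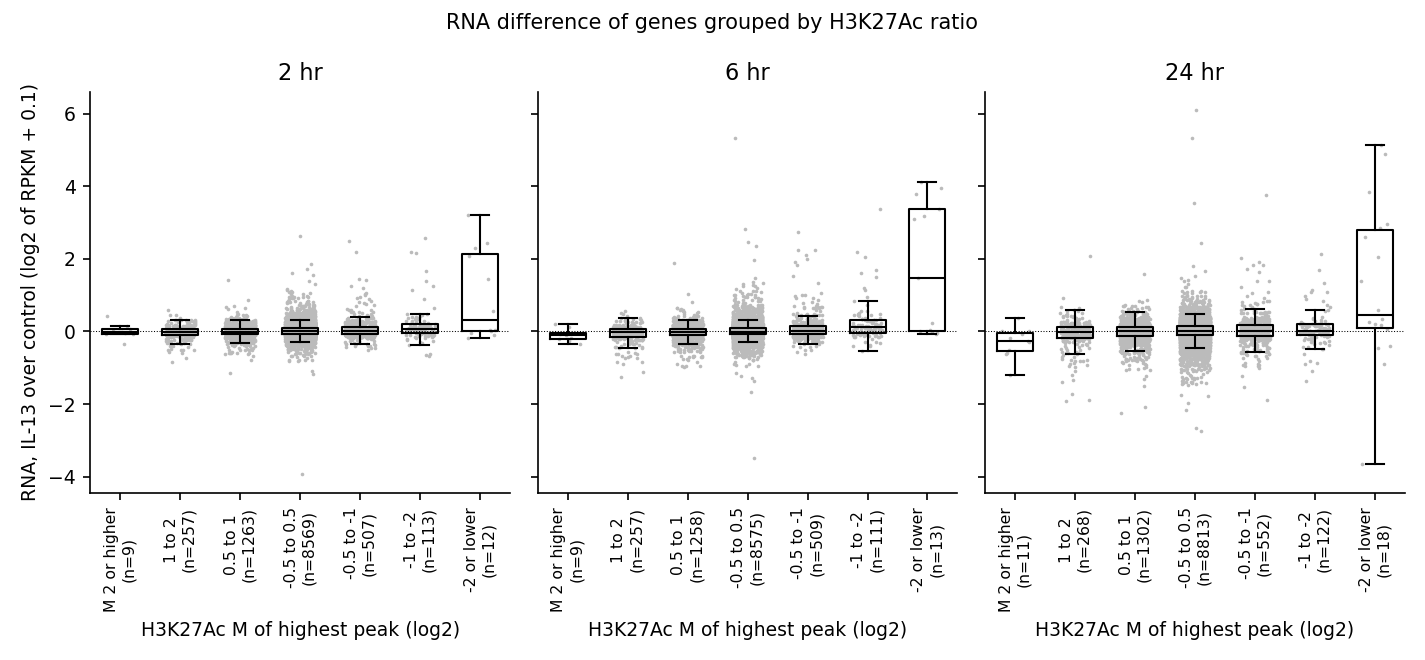
RNA log2 ratio of IL-13 over control, on log2(RPKM + 0.1), at 2, 6 and 24 hr for genes grouped by the M of their highest H3K27Ac peak; boxes span the quartiles with the median, whiskers reach 1.5 times that span, points are genes and n is their number. At 6 hr the group with M of -2 or lower has a median of 1.47, and the groups with M above -0.5 have medians near or under 0.

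At the other times the median RNA log2 ratio was again highest on the library 2 side and lowest on the library 1 side. For library 2 side, under 2-fold and library 1 side it was 0.073, 0.003 and -0.015 at 2 hr. At 24 hr it was 0.048, 0.024 and -0.034. The finer groups did not keep their order. At 24 hr the median was 0.0254 at M from -1 to above -2 and 0.0258 between -0.5 and 0.5. At 2 hr, where 0.397% of genes were higher and 0.186% lower with IL-13, 0 of 266 genes of the library 1 side were higher and 12 of 125 genes of the library 2 side were. At 24 hr, where 0.549% were higher and 1.02% lower, 1 of 279 genes of the library 1 side was higher and 8 lower, and on the library 2 side 14 of 140 were higher and 3 were lower. The controls of 2 and 6 hr share the identical values given above, and the part of this in the agreement of these times was not tested.

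Read from the RNA side, 64 genes were higher with IL-13 at 6 hr, of which 53 had a kept H3K27Ac peak. Library 1 was 2-fold higher at 0 of them and library 2 at 15 (28.3%), and the median M was -0.47. Their median level was 99.7 in library 1 and 166 in library 2. M was below 0 at 40 of the 53. Among 10671 genes with RNA under 2-fold at 6 hr, library 1 was 2-fold higher at 2.47% and library 2 at 1.02%. The median M of these 10671 genes was 0.08, and M was below 0 at 4159 of them. Other induced genes had little difference in H3K27Ac. HAS2, a hyaluronan synthase, had 267 in library 1 and 298 in library 2, with RNA of 43.0 RPKM with IL-13 and 7.77 RPKM in control cells. SERPINB13 RNA was 26.1 RPKM with IL-13 and 6.64 RPKM in control cells. BCL11B, a transcription factor, had 205 in library 1 and 191 in library 2, with RNA of 3.14 RPKM with IL-13 and 1.40 RPKM in control cells. ITGB6, an epithelial integrin chain, had 128 in library 1 and 117 in library 2, with RNA of 29.0 RPKM with IL-13 and 14.3 RPKM in control cells. HAS2 and SERPINB13 also had a stronger p in the authors' deposited table than their levels give.

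The 67 genes with an adjusted p under 0.05 and higher RNA at 6 hr in the authors' deposited table had a median M of -0.45, and 0 of them were past 2-fold on the library 1 side and 12 on the library 2 side. The 7 genes that were lower in that table had a median M of 0.82, with 2 higher in library 1. Over all 13067 genes with a kept peak, 3.24% were past 2-fold on the library 1 side and 1.81% on the library 2 side. Their median M was 0.09.

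H3K9Ac, another acetylation of active promoters, was compared at the same starts, with the order of its libraries likewise unstated. Of 10255 starts with both marks, library 1 of H3K9Ac was 2-fold higher at 1.93% and library 2 at 1.32%. At H3K27Ac levels of 120 or more, all 6731 starts with both marks had a median H3K9Ac M of 0.08. Of these, 75 were past 2-fold on the library 1 side of H3K9Ac and 22 on the library 2 side. Where H3K27Ac was 2-fold higher in library 1 at these levels, 77 starts had a median H3K9Ac M of 0.17. Of the 77, 3 were past 2-fold on the library 1 side and 0 on the library 2 side. Where H3K27Ac was 2-fold higher in library 2 at that level, 23 starts had a median of -0.51, with 0 higher in library 1 and 4 in library 2. With H3K27Ac peaks of departing p left out, the median at these levels was 0.25 at 14 starts of the library 1 side and -0.50 at 22 starts of the library 2 side. Over all levels the median was 0.14 on the library 1 side and -0.08 on the library 2 side of H3K27Ac. Over all starts it was 0.07, and also 0.07 at levels of 120 or more without the departing peaks. Over all levels, 258 of 372 starts of the library 1 side had a kept H3K9Ac peak, with 19 past 2-fold toward library 1 and 9 toward library 2. On the library 2 side 122 of 233 had one, with 8 toward library 1 and 11 toward library 2.

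CDH26 had an H3K9Ac level of 14.6 in library 1 and 53.8 in library 2 of that mark, and CCL26 had 4.71 in library 1 and 34.9 in library 2. LURAP1L had 118 in library 1 and 320 in library 2, SOCS1 had 80.2 in library 1 and 147 in library 2, and SOX2 had 277 in library 1 and 395 in library 2. MMP7, with a 4.99-fold difference in H3K27Ac, had 28.9 in library 1 and 37.9 in library 2 of H3K9Ac. DUSP10 had 68.6 in library 1 and 54.2 in library 2, and MALL had 126 in library 1 and 66.9 in library 2. ADAMTS15 went the other way, with 68.4 in library 1 and 35.9 in library 2. LBH had 122 in library 1 and 125 in library 2, so its H3K27Ac difference had no H3K9Ac difference beside it.

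H3K4me3, a methylation of promoter nucleosomes, was compared in the same way. Of 9061 starts with both marks, library 1 of H3K4me3 was 2-fold higher at 4.57% and library 2 at 3.39%. At levels of 120 or more the median H3K4me3 M was 0.14 at 71 starts of the library 1 side and -0.13 at 18 starts of the library 2 side. With H3K27Ac peaks of departing p left out it was 0.56 at 12 starts of the library 1 side and -0.13 at 18 of the library 2 side. The median over all starts at these levels was 0.08 in both settings. Over all levels it was 0.06 on the library 1 side and -0.175 on the library 2 side. Without the departing peaks it was -0.01 on the library 1 side and -0.17 on the library 2 side. The median over all starts of all levels was 0.07 in both settings. Over all levels, 181 of 372 starts of the library 1 side had a kept H3K4me3 peak, with 8 past 2-fold toward library 1 and 12 toward library 2. On the library 2 side 84 of 233 had one, with 2 toward library 1 and 7 toward library 2. At levels of 120 or more, 4 of the 71 starts were past 2-fold toward library 1 and 3 toward library 2. Of the 18 starts, 0 were toward library 1 and 1 toward library 2. LURAP1L had 59.5 in library 1 and 106 in library 2 of H3K4me3, and SOCS1 had 31.6 in library 1 and 45.9 in library 2. SOX2 had 71.8 in library 1 and 51.8 in library 2, and SGK1 had 66.5 in library 1 and 48.0 in library 2. At the CCL26, CDH26 and MMP7 starts there was no H3K4me3 peak of level 30 or more to compare.

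**Figure D5:**
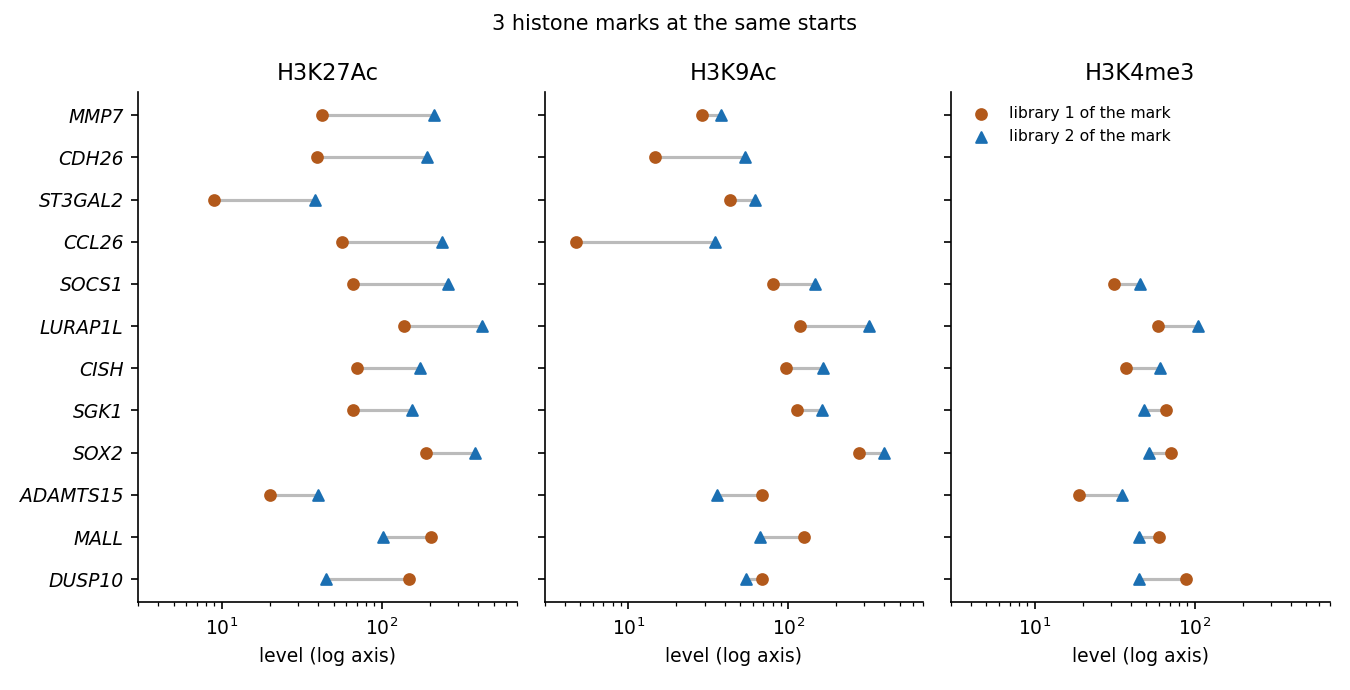
Levels of H3K27Ac, H3K9Ac and H3K4me3 in library 1 and library 2 of each mark (log axis) at the same starts, for genes 2-fold apart in both H3K27Ac and RNA at 6 hr that also had another mark listed; no point means that no peak of level 30 or more was listed there. CDH26, CCL26 and LURAP1L are higher in library 2 for both H3K27Ac and H3K9Ac, and ADAMTS15 is higher in library 1 of H3K9Ac.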

How the data were processed

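RPKM values and an adjusted p-value per gene were deposited by the authors, per the file headers. Per the file headers, whose names follow MAnorm, the authors gave every peak and start a log2 ratio after rescaling (M) and an average log2 level (A). Per the file headers, a −log10 p-value was deposited with them. The submitters' processing notes name TopHat2 2.0.9, Bowtie 1.0.0, MACS2 2.0.10.20130712 and DESeq, with build hg19 (GRCh37). Counting, annotation and pooling: not given in the sources used here. The 6 columns of raw reads were not used, since their libraries are not identified by treatment. ChIP depth is unknown from M and A.

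Levels were computed as 2 to the power A + M/2 for library 1 and A − M/2 for library 2. Entries with equal values and class and with starts within 20 kb were counted as 1 peak. A gene's peak is its highest. RNA ratios use log2(RPKM + 0.1), which understates low genes, over genes of at least 300 bp. Named are the 20 largest and 20 smallest M, the 10 of each among peaks of level 200 or more, members of 18 gene lists past 2-fold and up to 4 others of each. Genes named beyond that rule, and the sequences shown, were chosen after their values were seen. The members and lists were chosen with earlier results of these data known. Some peaks that the rule takes are not reported here. Sequences are from RefSeq, where 9855 of 13067 genes (75.4%) were matched by symbol, too few for shares of motifs by group, so that check is void. Scripts were tested on simulated data. The software was pandas 2.3.3, NumPy 2.4.6 and SciPy 1.17.1 under Python 3.11.15, with figures by matplotlib 3.10.9.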

Additional observations from a re-analysis of the deposited data

How the results depend on the processing

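Counts of peaks 2-fold apart followed the limits, as their construction gives: library 1 was higher at 1737 and library 2 at 1040 with a 1.5-fold limit, 65 and 82 with 4-fold, 1298 and 997 with no minimum level, 1008 and 753 at a minimum of 15, 270 and 177 at 60, and 360 and 224 with a mean level of at least 30. With M centred on its median they were 520 and 535. With limits chosen after seeing the data, they were 92 and 33 at a minimum of 120, and 24 and 31 when peaks with a departing p were also left out, so which library held more such peaks turned round at 4-fold, with M centred and in this last setting. At a minimum of 120 the median RNA ratio on the library 2 side was 0.18 at 2 hr, 0.30 at 6 hr and 0.19 at 24 hr. List medians of M that moved were, at a minimum of 60, 0.115 for IL-20 genes, 0.105 for SERPINB genes and -0.055 for matrix genes, and with reversed sign 0.075 for chemokines and 0.015 for interferon-stimulated genes. With no minimum they were -0.12 for SERPINB genes, a reversed sign, -0.24 for peptidases and -0.325 for markers of other lineages. With the peak of largest M in size they were -0.24 for peptidases, 0.40 for immediate early genes, 0.37 for NF-κB targets and, reversed, -0.02 for epithelial markers. With H3K27Ac peaks of departing p left out, the H3K4me3 median on the library 1 side was -0.01, a reversed sign. The causes were not tested. The other medians kept their sign and moved by at most 0.1, namely 39 of RNA, 41 of lists and 7 of other marks. For RNA that margin is large beside the medians themselves. With the peak of largest M in size, the library 2 RNA median fell from 0.11 to 0.04 at 6 hr. At 2 hr it fell from 0.07 to 0.04, and at 24 hr it was 0.05 either way. Among the counts, 8 stayed within 1.5 times, those with M centred included. The comparison of motif spacings was not run, for want of matched sequences. No paired analysis was possible because each group has 1 library and no test was made.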
